A study of Mus musculus with 2 samples.

Results

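The regulators described here write, read and erase DNA methylation and the repressive histone marks of Polycomb and of H3K9, and they were measured in sorted mouse liver mesothelial cells, the epithelial-like sheet on the surface of the organ. The 38 members were listed by name for their roles in these processes, with earlier results of these data already known. Their probe sets were found by gene symbol. Of the 38 genes, 37 had at least 1 probe set of their own, 95 in all, among 18733 genes with a probe set on the array. The adult group was 8-week-old C57BL/6 liver digested with collagenase and sorted with an antibody to Mesothelin. The other group was C57BL/6 liver at embryonic day 12.5 (E12.5), digested in the same way and sorted with an antibody to PCLP1, the product of Podxl. Each group was 1 Affymetrix array of RNA amplified through 2 cycles from 10 ng, so no spread between samples, no test and no p-value could be had. The stage, the antibody used to sort and the array itself all differ between the groups and cannot be told apart.

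DNA methylation on CpG is copied to the new strand after replication by Dnmt1, which Uhrf1 brings to half-methylated sites, is set anew by Dnmt3a and Dnmt3b, and is removed through oxidation by Tet enzymes and base excision by Tdg. Polycomb repressive complex 2 (PRC2) methylates lysine 27 of histone H3 through Ezh2 or Ezh1, and Polycomb repressive complex 1 (PRC1) ubiquitinates histone H2A and, in its canonical form, reads the PRC2 mark through a Cbx protein. Methylation of lysine 9 of histone H3 (H3K9) by Suv39h1, Suv39h2, Ehmt1, Ehmt2 and Setdb1 marks heterochromatin and silenced genes.

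Both sorts carried mesothelial RNA. All 10 mesothelial markers were called present on both arrays, with a summed signal of 76287 in adult and 32757 at E12.5. The 10 include Msln and Podxl, the genes of the antigens used to sort. The transcription factor Wt1 had signals of 2228 in adult and 2152 at E12.5, and the genes of both sorting antigens followed the labels. Msln had 11835 in adult and 48.5 at E12.5, and Podxl 1807 in adult and 6069 at E12.5. The summed signal of 20 proliferation genes was 5436 in adult and 60490 at E12.5, 11.1-fold lower in adult, with E2f1 the 1 gene of the list within 2-fold. The summed signal of 10 hepatoblast and hepatocyte genes was 2827 in adult and 30687 at E12.5, and that of 11 erythroid genes 294 and 4071, with 1 of the 11 present in adult and 8 at E12.5. Macrophage and leukocyte genes went the other way, at 26764 in adult and 787 at E12.5 over 12 genes, all 12 present in adult and 5 at E12.5. Over 10 endothelial genes the sums were 15004 in adult and 1800 at E12.5, carried by Clec4g, Kdr, Stab2 and Stab1. The other 5 of the 9 detected lay within 2-fold, and Pecam1 was absent on both arrays. Stellate and mesenchymal genes (8) summed to 5183 in adult and 9170 at E12.5, and did not all go the same way. At least 2-fold lower in adult were 5 of them, with 1 higher and 2 within 2-fold. Col1a1 had 501 in adult and 4503 at E12.5, and Acta2 3811 in adult and 2184 at E12.5. The ratio of 3' to 5' control signals was 6.81 in adult and 2.07 at E12.5 for Gapdh, and 3.47 in adult and 1.93 at E12.5 for beta-actin. The part of these differences in the results below was not tested, and fewer cells of a type and less RNA per cell cannot be told apart in such samples.

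Most of these regulators were lower in adult than at E12.5. A probe set was taken as detected where its call was present, and a gene was represented by its brightest detected probe set. Of the 35 members detected on at least 1 array, 19 were at least 2-fold lower in adult (54.3%), 3 were at least 2-fold higher in adult (8.57%) and 13 lay within 2-fold. Over all 13211 genes detected, 29.1% were at least 2-fold lower in adult and 16.9% at least 2-fold higher. At 4-fold, 11 members (31.4%) were lower and 2 (5.71%) higher in adult, against 10.2% and 8.39% of all detected genes. The median log2 difference, adult minus E12.5, was -1.32 over the members and -0.36 over all detected genes. Of the 35, 31 were detected on both arrays at the probe set that represents the gene. At that probe set the call was present only in adult for 1 (Cbx7) and only at E12.5 for 3 (Uhrf1, Suv39h2 and Ring1). Uhrf1 and Cbx7 each had a dimmer probe set present on both arrays. On the same arrays 19 of 20 proliferation genes were at least 4-fold lower in adult, and their part in these counts was not tested. Counts and medians describe these 2 arrays, and nothing here says how far they would move in other animals. The members were chosen with earlier results of these data known, so the gap from all detected genes is no independent evidence about them.

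**Figure D1:**
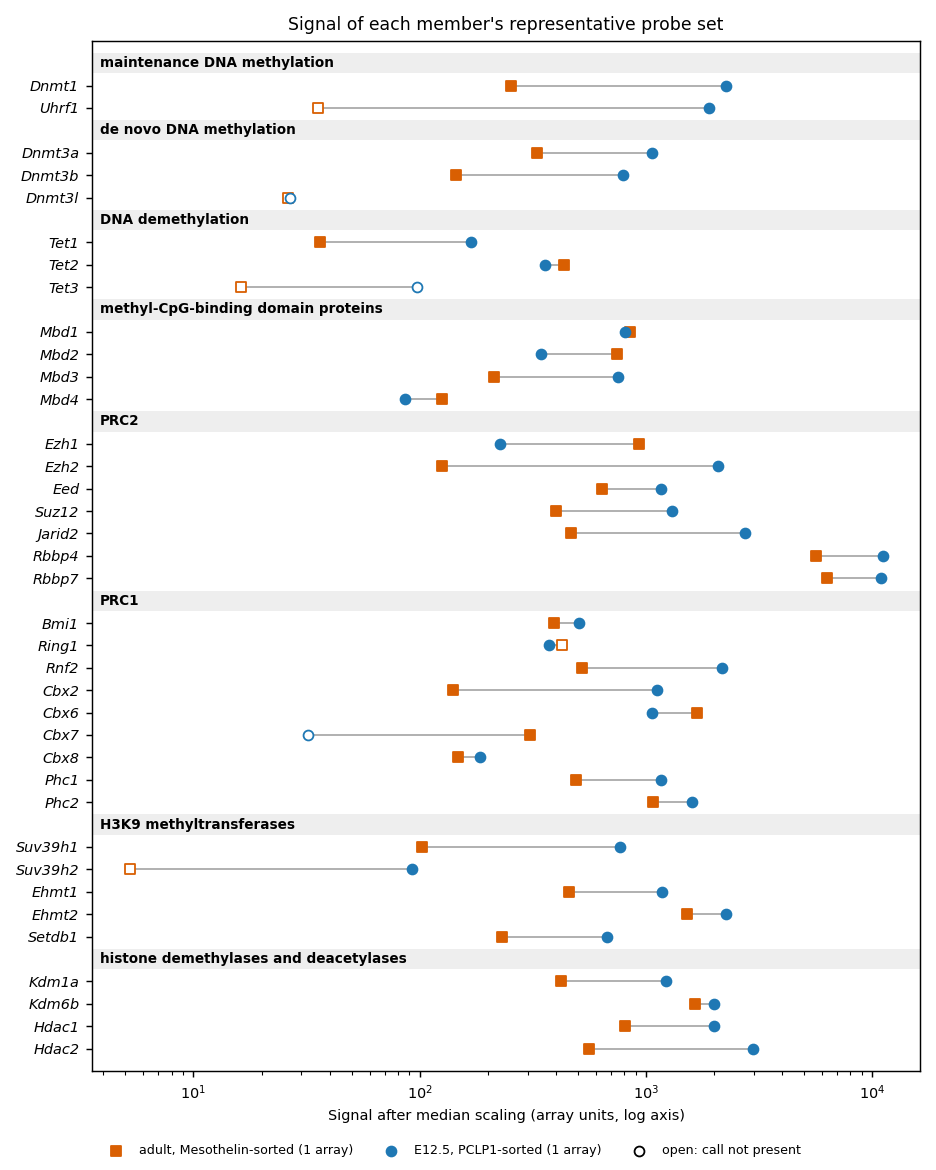
Signals of the representative probe set of each of the 37 members with a probe set, by role, on a log axis in array units after median scaling. Orange squares are the adult array and blue circles the E12.5 array, 1 array each, and open symbols mark a call other than present. Signals can be compared along a row and not between rows. Ezh2, Uhrf1, Dnmt1, Cbx2 and both Suv39h genes have the widest gaps towards E12.5, and Cbx7 and Ezh1 stand the other way round.

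Both genes of maintenance DNA methylation were lower in adult. Uhrf1 (probe set 1415810_at) had a signal of 35.4 in adult, called absent, and 1892 at E12.5, called present, at least 53.4-fold lower in adult. The other Uhrf1 probe sets were lower in adult as well, at 2.10 in adult and 202 at E12.5 for 1415811_at, and at 52.8 in adult and 163 at E12.5 for 1439227_at. The last of these, which only the deposited table assigns to Uhrf1, was present on both arrays and differed by -1.63, so the size of the Uhrf1 difference depends on the probe set and its direction does not. Dnmt1, the maintenance methyltransferase, had 252 in adult and 2251 at E12.5, 8.95-fold lower in adult. All 3 Dnmt1 probe sets were present on both arrays and differed by -3.16, -3.10 and -2.66. Uhrf1 and Dnmt1 thus lay below the median of all detected genes at every probe set.

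The Uhrf1 promoter is shown because this gene had the largest fold towards E12.5 of the members, also as a lower bound. It is the reference sequence from 250 bases before to 50 bases after the most upstream start that RefSeq lists on GRCm38.p6, chr17:56303087-56303386, plus strand. Capitals mark CCAAT boxes on either strand, of which 3 matches begin at -30, -2 and 2 relative to the start, the last 2 overlapping. None of the E2F or CHR words searched, given below, was found in this window, and other E2F-like sequences were not searched.
Uhrf1: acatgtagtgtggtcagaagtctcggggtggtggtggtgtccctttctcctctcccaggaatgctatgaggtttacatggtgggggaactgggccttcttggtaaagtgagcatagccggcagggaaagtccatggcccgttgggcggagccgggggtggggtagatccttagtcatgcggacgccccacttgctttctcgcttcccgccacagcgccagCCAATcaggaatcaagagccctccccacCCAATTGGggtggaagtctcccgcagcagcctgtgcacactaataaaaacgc

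The de novo methyltransferases were lower in adult too. Dnmt3a had 331 in adult and 1067 at E12.5, 3.22-fold lower in adult, and its 5 probe sets lay between -3.18 and -1.19 on the log2 scale. Dnmt3b had 144 in adult and 789 at E12.5, 5.49-fold lower, with its second probe set at -1.48. Dnmt3l, a cofactor without catalytic activity known from germ cells, was called absent on both arrays at 26.2 in adult and 26.7 at E12.5. Every detected methyltransferase of DNA was therefore at least 2-fold lower in adult at every detected probe set.

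Of the Tet genes, whose products oxidise methylcytosine, 1 was past 2-fold, 1 within it and 1 not detected. Tet1 had 36.4 in adult and 168 at E12.5, both called present, 4.62-fold lower in adult, with E12.5 above and adult below the array median of 44.0. Its other 2 detected probe sets differed by -1.22 and -1.79. Tet2 had 434 in adult and 358 at E12.5, and its 2 probe sets differed by 0.28 and 0.36, within 2-fold. Tet3 was called absent on both arrays at 16.2 in adult and 96.9 at E12.5, so no fold is given. The 3 probe sets of Tdg, the glycosylase that removes oxidised methylcytosine, are also assigned to its 2 pseudogenes and were given to no gene. They had signals of 627, 653 and 174 in adult and 2919, 3201 and 1174 at E12.5, and were lower in adult by 4.66, 4.90 and 6.75-fold.

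The methyl-CpG-binding domain proteins divided. Mbd2, which recruits the NuRD deacetylase complex to methylated DNA, had 742 in adult and 345 at E12.5, 2.15-fold higher in adult. Its second probe set stood at 68.5 in adult and 18.3 at E12.5, where the call was marginal. Mbd3, the NuRD subunit that in mammals binds methylated CpG poorly, had 214 in adult and 752 at E12.5, 3.51-fold lower in adult. Mbd2 and Mbd3, which occupy NuRD complexes in place of each other, thus differed in opposite directions, by 2.92 on the log2 scale from one another.

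Mbd1 and Mbd4 depended on the probe set. The brightest Mbd1 probe set (1417968_a_at) had 848 in adult and 809 at E12.5, and 1437061_at had 318 in adult and 302 at E12.5, both close to equal. The other 3 Mbd1 probe sets were higher in adult, by log2 differences of 1.89, 2.41 and 3.77, the last being 1453678_at with 393 in adult and 28.7 at E12.5. Mbd4, a glycosylase that repairs mismatches at methylated CpG, had 126 in adult and 85.9 at E12.5, and its 3 probe sets ran from -0.07 to 1.23.

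**Figure D2:**
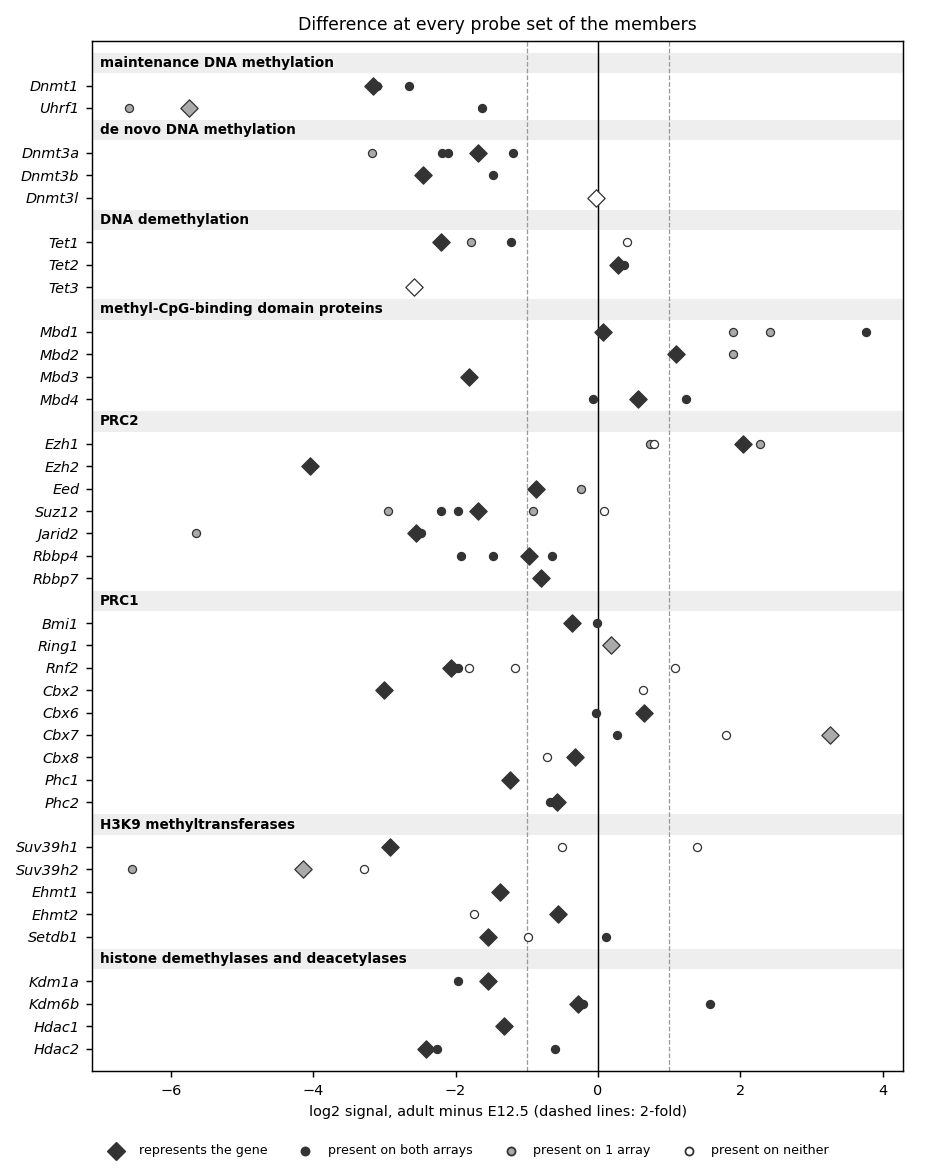
Log2 difference, adult minus E12.5, at each of the 95 probe sets of the members, by role. Diamonds represent the gene, circles are its other probe sets, black symbols are present on both arrays, grey on 1 and white on neither, and dashed lines mark 2-fold. Dnmt1, Dnmt3a, Dnmt3b, Jarid2 and Kdm1a lie left of the 2-fold line at every probe set, while those of Mbd1, Cbx7, Kdm6b and Setdb1 are spread.

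Among 62 member probe sets present on both arrays, 49 (79.0%) were lower and 13 higher in adult, 33 (53.2%) and 5 (8.06%) of them by at least 2-fold. Over all 17716 named probe sets present on both arrays, 64.0% were lower, 26.7% by at least 2-fold, and 12.8% were at least 2-fold higher. Of 25 members with several detected probe sets, 4 (Mbd4, Cbx6, Setdb1 and Kdm6b) had probe sets that differed in direction. Probe sets of a gene are repeat readings of the same 2 RNA samples and not replicates.

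The alternative catalytic subunits of PRC2 differed in opposite directions. Ezh2, the more active methyltransferase of the pair, had 126 in adult and 2089 at E12.5, 16.6-fold lower in adult, with 1 probe set (1416544_at). Ezh1, the other catalytic subunit, had 933 in adult and 226 at E12.5, 4.12-fold higher in adult (1449023_a_at). A second Ezh1 probe set read 36.4 in adult, present, and 7.47 at E12.5, absent, and 1 more read 20.9 in adult, present, and 12.6 at E12.5, absent, so all 3 detected ones were higher in adult, though the last by a log2 difference of only 0.73. The log2 differences of Ezh1 and Ezh2 lay 6.10 apart.

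Ezh2 had 1 of the 3 lowest differences among detected members matched to a promoter, and Ezh1 1 of the 3 highest. Both promoters are shown for that reason. The Ezh2 window is chr6:47594981-47595280 and the Ezh1 window chr11:101226414-101226713, both RefSeq, GRCm38.p6, minus strand, printed along the gene from 250 bases before to 50 bases after the start. Capitals in Ezh2 mark 3 CCAAT boxes, on either strand, which begin at -90, -64 and -11, and 1 E2F word, TTTGGCGC, which begins at 4. Ezh1 held none of the words searched.
Ezh2: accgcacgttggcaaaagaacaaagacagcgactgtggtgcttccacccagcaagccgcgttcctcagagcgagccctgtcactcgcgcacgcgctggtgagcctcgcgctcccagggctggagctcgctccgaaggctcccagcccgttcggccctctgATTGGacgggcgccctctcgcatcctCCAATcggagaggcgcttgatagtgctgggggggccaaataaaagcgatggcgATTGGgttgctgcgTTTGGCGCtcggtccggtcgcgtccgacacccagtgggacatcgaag
Ezh1: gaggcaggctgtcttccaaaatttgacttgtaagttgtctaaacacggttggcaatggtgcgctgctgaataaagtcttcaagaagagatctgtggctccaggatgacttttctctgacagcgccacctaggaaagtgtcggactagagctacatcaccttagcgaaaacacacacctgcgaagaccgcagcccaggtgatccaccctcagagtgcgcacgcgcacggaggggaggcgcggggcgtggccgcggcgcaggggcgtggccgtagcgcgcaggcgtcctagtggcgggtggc

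Of the other 5 PRC2 subunits, Suz12 and Jarid2 were at least 2-fold lower in adult, and Eed, Rbbp4 and Rbbp7 lay within 2-fold. Suz12, a core scaffold, had 402 in adult and 1299 at E12.5, 3.23-fold lower, and its 5 detected probe sets lay between -2.95 and -0.91. Eed, the core subunit that binds the methylated histone, had 637 in adult and 1163 at E12.5, 1.83-fold lower and just within 2-fold. Jarid2, an accessory subunit that helps to bring PRC2 to chromatin, had 467 in adult and 2728 at E12.5, 5.85-fold lower, with a second probe set at -2.48. Its dimmest probe set had 1.71 in adult, absent, and 86.0 at E12.5, present.

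The histone-binding subunits that PRC2 shares with deacetylase complexes stood close to the 2-fold line. Rbbp4 had 5666 in adult and 11128 at E12.5, 1.96-fold lower, from a probe set (1434892_x_at) that may match related sequences. Its other 3 probe sets differed by -1.93, -1.47 and -0.64, and the first of these had 449 in adult and 1715 at E12.5. Rbbp7 had 6308 in adult and 10950 at E12.5, 1.74-fold lower, with both probe sets within 0.01 of each other.

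PRC1 was uneven. Of its 9 members, 3 were at least 2-fold lower in adult, 1 was higher and 5 lay within 2-fold. Over all detected genes 29.1% were at least 2-fold lower and 16.9% higher. The median log2 difference of the 9 was -0.36, equal to that of all detected genes, and 0.02 where those are centred. Rnf2 (Ring1B), the main E3 ligase subunit, had 519 in adult and 2172 at E12.5, 4.18-fold lower, and its second detected probe set differed by -1.97. Ring1, its paralogue, had 425 in adult with a marginal call and 374 at E12.5, within 2-fold. Bmi1, a RING-finger partner of both, had 394 in adult and 505 at E12.5, also within 2-fold.

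The Cbx proteins, which give canonical PRC1 its hold on methylated histone H3, differed most within this complex. Cbx2 had 140 in adult and 1122 at E12.5, 8.04-fold lower in adult. Cbx7 (1433557_at) had 306 in adult, present, and 32.0 at E12.5, absent, at least 9.57-fold higher in adult. A dimmer Cbx7 probe set was present on both arrays at 24.0 in adult and 20.1 at E12.5, a log2 difference of 0.26, so that the Cbx7 difference rests on 1 probe set. Cbx2 and Cbx7 thus stood past 2-fold on opposite sides at these probe sets.

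Cbx6 and Cbx8 lay within 2-fold. Cbx6 had 1673 in adult and 1066 at E12.5, and its second probe set was close to equal, at 777 in adult and 793 at E12.5. Cbx8 had 148 in adult and 185 at E12.5. Of the Polyhomeotic subunits, which polymerise through a SAM domain, Phc1 was 2.37-fold lower in adult (492 in adult and 1164 at E12.5) and Phc2 1.49-fold lower (1072 in adult and 1592 at E12.5).

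The promoters of Cbx7 and Cbx6 are shown because, with Ezh1, these genes had the highest differences among the detected members matched to a promoter. The Cbx7 window is chr15:79932597-79932896 and the Cbx6 window chr15:79834284-79834583, both RefSeq, GRCm38.p6, minus strand, printed as above. Capitals in Cbx7 mark a CCAAT box that begins at -190 and a CHR word, on the opposite strand, that begins at -54, and Cbx6 held none of the words searched.
Cbx7: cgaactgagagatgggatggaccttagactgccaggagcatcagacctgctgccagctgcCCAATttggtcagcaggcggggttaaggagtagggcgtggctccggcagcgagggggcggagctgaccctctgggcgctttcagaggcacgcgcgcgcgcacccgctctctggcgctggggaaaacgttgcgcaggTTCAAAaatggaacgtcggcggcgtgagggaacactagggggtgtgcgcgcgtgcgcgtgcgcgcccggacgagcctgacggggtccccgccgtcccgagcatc
Cbx6: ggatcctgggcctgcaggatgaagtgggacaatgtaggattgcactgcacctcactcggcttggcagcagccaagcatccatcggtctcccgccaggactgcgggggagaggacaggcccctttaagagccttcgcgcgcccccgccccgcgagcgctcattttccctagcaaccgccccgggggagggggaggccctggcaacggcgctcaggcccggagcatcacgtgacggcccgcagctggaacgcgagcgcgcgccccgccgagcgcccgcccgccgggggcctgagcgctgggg

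Of the 5 writers of H3K9 methylation, 4 were at least 2-fold lower in adult and Ehmt2 lay within 2-fold. Over all detected genes 29.1% were at least 2-fold lower. Suv39h1 and Suv39h2 are the enzymes of constitutive heterochromatin. Suv39h1 had 102 in adult and 771 at E12.5, 7.59-fold lower, from 1427382_a_at, which the deposited table alone assigns to it. Its other 2 probe sets were called absent on both arrays, and its difference was 1.39 on the log2 scale without probe sets that may match several transcripts or genes. Suv39h2 had 5.22 in adult, absent, and 92.1 at E12.5, present, at least 15.8-fold lower in adult. A second detected Suv39h2 probe set had 0.466 in adult and 43.6 at E12.5, with the same calls, and the third was absent on both arrays. The low E12.5 signals of Suv39h2 make the size of its difference uncertain, and it was -1.07 on the log2 scale with signals floored at the array median.

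The euchromatic H3K9 enzymes differed by less. Ehmt1 (GLP) had 456 in adult and 1176 at E12.5, 2.58-fold lower, while Ehmt2 (G9a), its heterodimer partner, had 1523 in adult and 2247 at E12.5, within 2-fold. Setdb1, which silences retroelements together with Trim28, had 230 in adult and 675 at E12.5, 2.93-fold lower, but a dim second probe set was close to equal at 25.1 in adult and 23.2 at E12.5, and this one gives 0.11 where multiply matching probe sets are left out.

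The Suv39h2 promoter is shown because its measured difference, -4.14, was among the 3 lowest of the members matched to a promoter, though against an adult signal called absent. The window is chr2:3474937-3475236, RefSeq, GRCm38.p6, minus strand, printed as above, and capitals mark its 1 CHR word, which begins at 20.
Suv39h2: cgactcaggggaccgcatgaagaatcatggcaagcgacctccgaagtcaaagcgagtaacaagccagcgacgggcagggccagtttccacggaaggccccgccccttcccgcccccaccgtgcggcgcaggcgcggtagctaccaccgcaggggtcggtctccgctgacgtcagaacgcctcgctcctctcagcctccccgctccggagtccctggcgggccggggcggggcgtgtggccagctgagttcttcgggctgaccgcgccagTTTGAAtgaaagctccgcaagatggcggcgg

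Among the erasers and deacetylases, Hdac2 was lower by most. It had 559 in adult and 2971 at E12.5, 5.31-fold lower, with a second probe set at -2.26 and a dim one at -0.61. Hdac1, its paralogue in the same corepressor complexes, had 805 in adult and 2007 at E12.5, 2.49-fold lower. Kdm1a (LSD1), a histone demethylase of the CoREST complex, had 423 in adult and 1227 at E12.5, 2.90-fold lower, and its second probe set differed by -1.97. Kdm6b (Jmjd3), which removes the PRC2 mark, had 1646 in adult and 1998 at E12.5, within 2-fold, and 1 of its 3 probe sets was higher in adult, at 356 in adult and 120 at E12.5.

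Members nearest to the 2-fold line on its 2 sides were Phc1 (2.37-fold) and Hdac1 (2.49-fold) among those lower in adult and Rbbp4 (1.96-fold) and Eed (1.83-fold) among those within it. Towards adult they were Mbd2 (2.15-fold) and Cbx6 (1.57-fold).

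Of 81 other genes of the same pathways, 73 were detected, with 29 at least 2-fold lower in adult (39.7%), 8 higher (11.0%) and 36 within 2-fold, and a median log2 difference of -0.62. Over all detected genes these were 29.1%, 16.9% and -0.36. The counts of the single lists below are to be read beside these shares, and no list was tested against them. With detected genes centred, 21.9% of the 73 were lower, near the 19.6% of all genes. At 4-fold, 3 of the 73 (4.11%) were lower and 2 (2.74%) higher in adult, both below the 10.2% and 8.39% of all detected genes. Both lists were chosen with results of these arrays known, so the gap between 31.4% and 4.11% is no independent evidence about the members.

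Of 12 other DNA methylation genes, 3 were lower, 3 higher and 6 within 2-fold. Hells, a remodelling factor needed for DNA methylation of repeats, had 35.4 in adult and 1406 at E12.5, 39.7-fold lower. Zbtb4, a zinc-finger reader of methylated DNA, had 1460 in adult and 106 at E12.5, 13.8-fold higher in adult, and Zbtb38, of the same family, had 168 in adult and 56.3 at E12.5. The rest past 2-fold, named after their values were seen, were Uhrf2 and Mbd6, lower in adult by 2.59 and 2.07-fold, and Mbd5, 2.79-fold higher. Genes of the methyl-CpG-binding domain family thus stood on both sides here, as Mbd2 and Mbd3 did among the members.

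Of 23 other Polycomb genes, 10 were lower, 2 higher and 11 within 2-fold. E2f6, a repressor found with noncanonical PRC1, had 170 in adult and 1085 at E12.5, 6.38-fold lower, and Kdm2b, which brings a noncanonical PRC1 to CpG islands, had 588 in adult and 2738 at E12.5, 4.65-fold lower. Mtf2, a PRC2 accessory subunit, had 267 in adult and 897 at E12.5, 3.36-fold lower. The 2 that were higher in adult were Phf1, another PRC2 accessory subunit, at 206 in adult and 82.2 at E12.5, and Phc3, at 614 in adult and 280 at E12.5. These 2 were named after their values were seen.

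Of 17 other H3K9 genes, 6 were lower, 1 higher and 10 within 2-fold. Cbx1, a heterochromatin protein 1, had 270 in adult and 930 at E12.5, 3.45-fold lower, and Trim28, the corepressor that recruits Setdb1, had 3624 in adult and 9221 at E12.5, 2.54-fold lower. Cdyl, a chromodomain corepressor, had 276 in adult and 681 at E12.5, 2.47-fold lower. The gene higher in adult, named after its value was seen, was the H3K9 demethylase Kdm4c, at 200 in adult and 90.1 at E12.5.

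Of 21 other deacetylase and corepressor genes, 10 were lower, 2 higher and 9 within 2-fold. In the NuRD complex, the remodeller Chd4 had 506 in adult and 1734 at E12.5, 3.43-fold lower, and Mta1 had 259 in adult and 851 at E12.5, 3.29-fold lower. Mta3, its paralogue, had 677 in adult and 134 at E12.5, 5.06-fold higher in adult. The other gene higher in adult was the deacetylase Hdac10, at 457 in adult and 162 at E12.5, named after its value was seen. Of the other NuRD genes listed, named here after their values were seen, Mta2, Gatad2a, Gatad2b, Hdac1, Hdac2 and Mbd3 were at least 2-fold lower in adult, Chd3, Rbbp4 and Rbbp7 lay within 2-fold, and Mbd2 was higher.

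**Figure D3:**
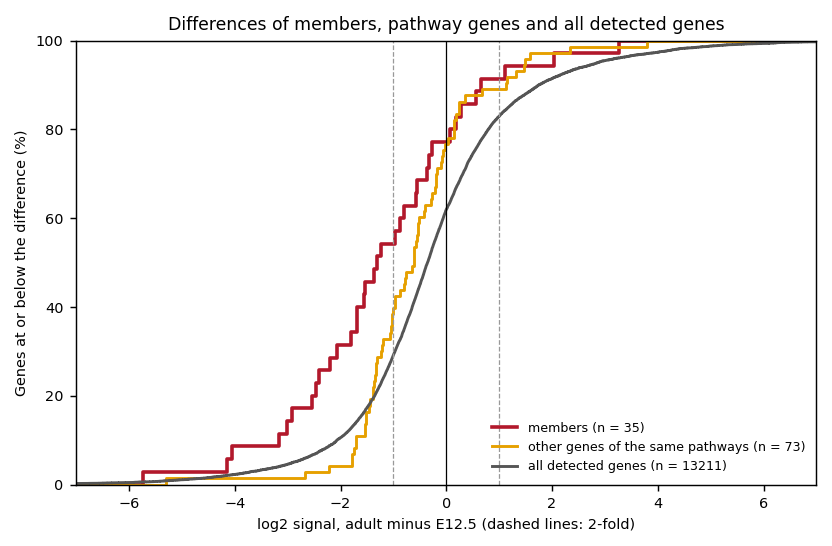
Cumulative share of genes (%) at or below each log2 difference, adult minus E12.5, for the 35 detected members (red), the 73 detected other genes of the same pathways (yellow) and all 13211 detected genes (grey). Genes whose representative probe set was detected on 1 array stand at their measured difference, and dashed lines mark 2-fold. The red line lies left of the grey one over most of its length, with medians of -1.32 and -0.36, and the yellow line, with a median of -0.62, rises late on the far left.

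In windows of 300 bases, 1 per gene, the 33 members with an entry held a median of 26 CpG, against 23 over 65 of the other pathway genes and 13 over 17492 protein-coding genes. The 17 members at least 2-fold lower in adult had a median of 29 and the other 16, undetected members included, a median of 25.5. The range was wide, with 2 CpG at Dnmt1, 12 at Uhrf1, 46 at Dnmt3a and 57 at Tet2. Each window stands at the most upstream start listed, which need not be the start used in these cells.

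Motif words known from cell cycle promoters were searched on both strands. The E2F words TTTGGCGC, TTTCCCGC, TTTGCCGC and TTTCGCGC were found at 2 of the 33 (6.1%), Ezh2 and Suz12, against 2.9% of all coding genes. CCAAT was found at 18 (54.5%, against 39.2%), at 9 of the 17 lower in adult and 9 of the other 16. The CHR word TTTGAA was found at 6 (18.2%, against 16.5%). Only these exact words were searched, so other E2F-like sequences are not counted. A match describes letters in the window and not a bound site.

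Over 11 settings, the reported one and 10 alternatives, 14 members were at least 2-fold lower in adult in every one. Among these were Uhrf1, Dnmt1, Ezh2, Cbx2, Dnmt3a, Dnmt3b, Rnf2 and Hdac2. Cbx7 was at least 2-fold higher in adult in every one. No setting read it from its dimmer probe set alone, which was present on both arrays and differed by 0.26. In single settings 19.6% to 46.5% of all detected genes were at least 2-fold lower and 11.5% to 22.9% at least 2-fold higher. The share of all genes past 2-fold in every setting was not counted, so the 14 have no background beside them. Ezh1 was higher by at least 2-fold in 10 of 11, and stood at 0.73 on the log2 scale where probe sets that may match several transcripts were left out. Mbd2 was within 2-fold, at 0.55, without scaling. Scaling set the general level, and the median of all detected genes ran from -0.91 without scaling to 0.02 with the median of genes detected on both arrays set to 0, while that of the members ran from -1.87 to -0.93. Of all detected genes past 2-fold, 63.2% were lower in adult as reported, 53.7% after quantile normalization, 46.1% with centring and 80.2% without scaling. The median of the members stayed below that of all genes by between 0.70 and 1.04 in these settings.

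**Figure D4:**
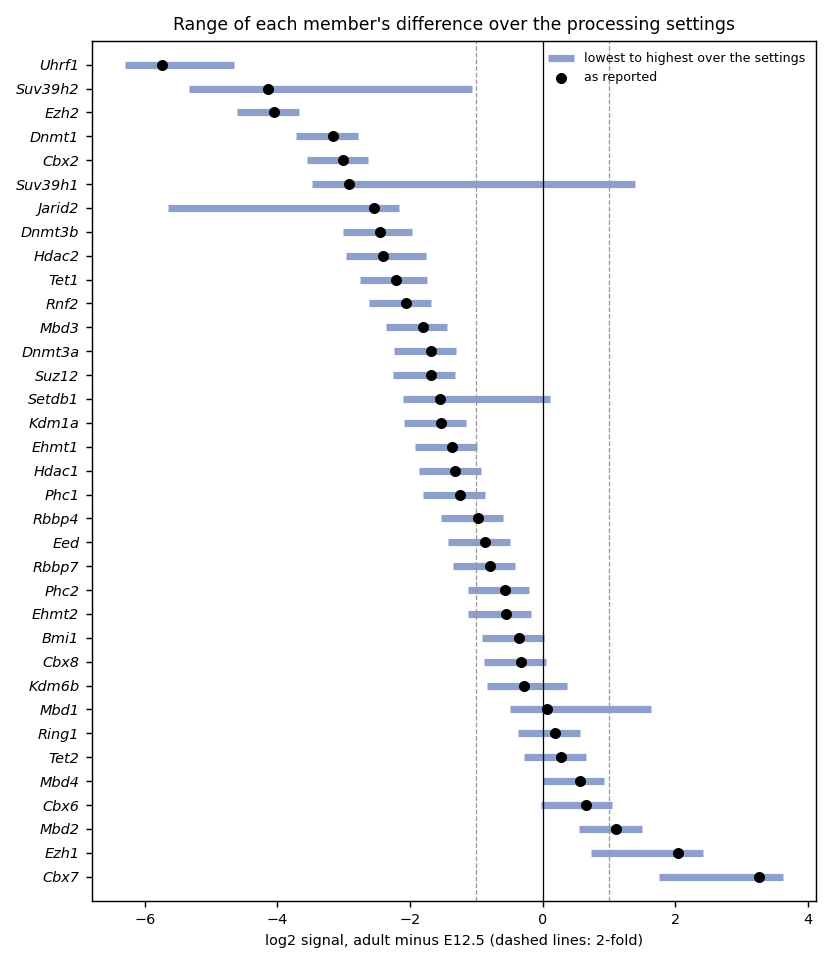
Log2 difference, adult minus E12.5, of the 35 detected members, sorted, with the reported value as a black point and a bar from the lowest to the highest value over 11 settings. Dashed lines mark 2-fold. Bars of Uhrf1, Ezh2, Dnmt1 and Cbx2 lie wholly left of the line, that of Cbx7 wholly right, and those of Suv39h1, Suv39h2, Jarid2 and Setdb1 are the longest.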

How the data were processed

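RNA of sorted mesothelial cells was measured on 1 Affymetrix array for each of 2 groups. The deposited table holds, per the file headers, a raw signal (an intensity on a linear scale) and a detection call, present, marginal or absent, for 45101 probe sets. Per the submitters' processing notes the software was Affymetrix Expression Console, and how probes were summarised is not given in the sources used here. From the values, the deposited ratio of adult to E12.5 is the adult raw signal over 0.680 times the E12.5 signal, the ratio of the array medians (29.9 and 44.0), with a floor of 0.01. Adult signals were divided by that constant (0.56 on the log2 scale), so differences are the log2 of the authors' ratio apart from values at its floor.

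Genes were named from the platform annotation, or from the deposited table where the platform annotation has no entry for the probe set and the name is a RefSeq symbol or synonym (GRCm38.p6). That gave 34945 and 1391 of 45037 probe sets other than controls, while 1079 with several genes and 7622 with none were named for no gene. A gene whose representative probe set was detected on 1 array got a lower bound on its fold. Its bright signal was divided by the dim one or, where larger, by the lowest detected signal on the dim array. Those lowest signals were 5.84 in adult and 4.57 at E12.5. With 1 array a group, no test was run, the number of arrays limits the precision, and the 2-fold line stands in for a call. The per-gene table was tested on simulated data, with Python 3.11.15, numpy 2.4.6 and pandas 2.3.3. All 38 members are accounted for. Of the other pathway genes, the 3 with the largest difference in each list were to be named, with exceptions marked, and the members, the lists and the settings were chosen with earlier results of these data known. Alternatives covered scaling, the choice of probe sets, the detection filter and low signals. Promoters are RefSeq sequences, 1 per gene at the most upstream start.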

Additional observations from a re-analysis of the deposited data

How the results depend on the processing

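No paired analysis was possible because each group holds 1 array, and for the same reason no replicate could be left out. The counts of members past 2-fold, 19 lower and 3 higher in adult, and their median of -1.32 kept their direction in all 10 alternatives. These gave 16 to 24 lower, 2 to 4 higher and medians from -1.87 to -0.93. The 24 came without scaling, where 46.5% of all detected genes were lower, and the 16 with centring, where 19.6% were. Of all detected genes, 11.5% to 22.9% were higher in adult in the same alternatives. Of 350 member values under the alternatives, 334 moved by less than the SD of 0.62 between probe sets of a gene, 14 by more, and 2 of members past 2-fold changed sign. Those 2 came without probe sets that may match several transcripts or genes, at Suv39h1 (1.39, a probe set called absent on both arrays) and Setdb1 (0.11). The 334 is no measure of stability by itself. Every member moved by 0.56 without scaling and by 0.38 with centring, both below the SD of 0.62 by construction. Among members within 2-fold, 9 values of 7 genes also changed sign. Without scaling, Tet2 was -0.28, Mbd1 -0.49 and Ring1 -0.37. With centring, Bmi1 was 0.02, Cbx8 0.05 and Kdm6b 0.10, and Kdm6b was also 0.10 after quantile normalization and 0.36 with the mean of probe sets. Cbx6 was -0.03 without multiply matching probe sets. The median of the methyl-CpG-binding domain members, 0.31 as reported, was -0.24 without scaling, and that of the PRC1 members, -0.36, was 0.02 with detected genes centred. The median of other DNA methylation genes, 0.05, was -0.51 without scaling, -0.05 without multiply matching probe sets and with marginal calls taken as detected, -0.07 with no detection filter and -0.03 with signals floored at the array median. The count of other pathway genes lower in adult, 29, was 44 without scaling (60.3%, against 46.5% of all detected genes). It was 16 with centring (21.9%, against 19.6%). The count of those higher in adult, 8, was 3 without scaling, where 11.5% of all detected genes were higher. The cause of these changes was not tested. Signals below the array median of 44.0, as for Tet1, Uhrf1 and Suv39h2 in adult and Cbx7 at E12.5, limit how well the size of a difference is known.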
